A study of Homo sapiens with 4 samples.

Results

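The 8 genes described here encode interleukins and interleukin-binding proteins made by inflamed epithelium, namely IL15, IL15RA, IL7, IL6, IL1A, IL1B, IL32 and IL18BP. Their chromatin accessibility was measured by ATAC-seq, in which a transposase inserts sequencing adapters into open DNA, in the nasopharyngeal carcinoma cell line HK1. All cells were HK1, either wild type (WT) or with FLI1 knocked out by CRISPR (sgFLI1, here FLI1-KO), and each genotype was left untreated or exposed to IFN-γ for a day, which gives 4 groups. WT and sgFLI1 stand for the untreated cells below, and WT-IFN-γ and sgFLI1-IFN-γ for the treated ones. FLI1 is a transcription factor of the ETS family, and the study asked how its loss alters accessibility in tumour cells with and without IFN-γ. Whether the FLI1-KO cells were a single clone or a pool is not given in the sources used here, and peak lists do not show the edit itself. A peak was assigned to a gene when it overlapped the GENCODE gene body or the 10 kb upstream of it. In WT cells this gave 15 of 59629 peaks, and 20 of 67470 with IFN-γ. In FLI1-KO cells it gave 14 of 63203, and 15 of 59923 with IFN-γ. Peaks that overlapped between groups were merged into 25 regions, of 93211 over the whole genome.

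IFN-γ is a cytokine of activated T and NK cells that acts on tumour cells through JAK kinases and induces interferon regulatory factors (IRF), which bind GAAA repeats in enhancers and promoters. IL-15 and IL-7 signal through the common gamma chain and sustain T and NK cells, and IL-15Rα, the product of IL15RA, carries IL-15 on the cell surface and presents it to neighbouring lymphocytes. IL-6, IL-1α and IL-1β are inflammatory cytokines whose genes are known targets of NF-kB and AP-1. IL-32 is an inflammatory cytokine, and IL-18BP is a secreted protein that binds IL-18 and neutralises it. Accessibility says nothing by itself of how much RNA was made.

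The 4 sequences below are shown because they lie in regions that were listed or more open in WT-IFN-γ cells. All are GRCh38, plus strand, 5′ to 3′, and capitals mark motif matches found on either strand.
The first is the summit window of a region in intron 1 of IL15RA at chr10:5971350-5971550, listed only in WT-IFN-γ, whose capitals are an IRF match (GAAANNGAA, here read on the minus strand) and, after it, an AP-1 match (TGANTCA).
IL15RA intron 1: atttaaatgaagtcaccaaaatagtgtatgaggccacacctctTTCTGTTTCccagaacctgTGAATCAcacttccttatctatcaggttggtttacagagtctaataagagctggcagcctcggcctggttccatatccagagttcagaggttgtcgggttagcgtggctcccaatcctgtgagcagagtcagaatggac
The second is the site beside the summit of the IL18BP region at chr11:71999540-71999568, with an IRF match in capitals.
IL18BP: gttaaaaagtGAAAGTGAAatagagggtc
The third is the site beside the summit of the IL32 start-site region at chr16:3065294-3065322, with an NF-kB match (GGGNNNTTC) in capitals.
IL32: cctgtactcaGGGAGTTTCcccagccagc
The last is the summit window of a region in intron 1 of IL15 at chr4:141654154-141654354, listed only in WT-IFN-γ, in which none of the 4 motifs searched was found.
IL15 intron 1: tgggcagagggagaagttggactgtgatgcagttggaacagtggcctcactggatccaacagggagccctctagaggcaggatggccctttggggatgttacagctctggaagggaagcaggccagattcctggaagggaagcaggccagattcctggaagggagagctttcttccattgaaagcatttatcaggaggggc

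Each group had 1 peak list, so no test between groups was possible, and every interval below covers counting error alone. In a bulk library, fewer cells with an open region and less opening in each cell cannot be told apart. The number of tags piled up at each summit was recovered from the listed values. Dividing it by the tag density of the library, which was 8.04 tags per kb for WT and 8.84 for WT-IFN-γ, against 6.93 for sgFLI1 and 6.86 when treated, gave a scaled pileup. Ratios below are of scaled pileups, with 95% exact conditional binomial intervals. The ratio of the median peak shared by each pair of lists was 0.952 for IFN-γ in WT cells, 0.909 for IFN-γ in FLI1-KO cells, 1.03 for FLI1-KO over WT cells without IFN-γ and 0.986 with IFN-γ. Of 10 epithelial marker genes, 5 had a summit within 1 kb of the start site in every library (KRT8, KRT18, KRT17, EPCAM and SFN), whereas KRT5, KRT14, KRT6A, TP63 and CDH1 had none there. None of 7 T and NK cell markers or 3 B cell markers had one in any library. Of 4 myeloid markers 2 had one (CD14 and CD68), and of 6 endothelial and fibroblast markers 1 or 2 had one. These were COL1A2 in every library, CDH5 with 18 tags in WT and 17 in sgFLI1-IFN-γ, and COL1A1 in sgFLI1. COL1A1 had a peak of 132 to 172 tags in every library, with summits 992 to 1180 bp from the start site, and only that of sgFLI1 fell within 1 kb. The KRT17 peak held 67 tags in WT cells and 64 with IFN-γ, and 39 and 18 in FLI1-KO cells, and its part in any difference between genotypes was not tested.

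Of the 25 regions, 10 were listed in all 4 groups, 4 in WT-IFN-γ alone, 3 in both WT groups alone and 2 in both FLI1-KO groups alone. The 10 constant regions were at IL15, IL15RA, IL6, IL1A, IL1B and IL32, and those 6 genes each had a start-site region open in every group. IL7 and IL18BP did not. IL7 had 3 peaks in WT cells and 4 with IFN-γ, and in FLI1-KO cells none and, with IFN-γ, 1. IL18BP had none in WT and 1 in each of the other groups.

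**Figure D1:**
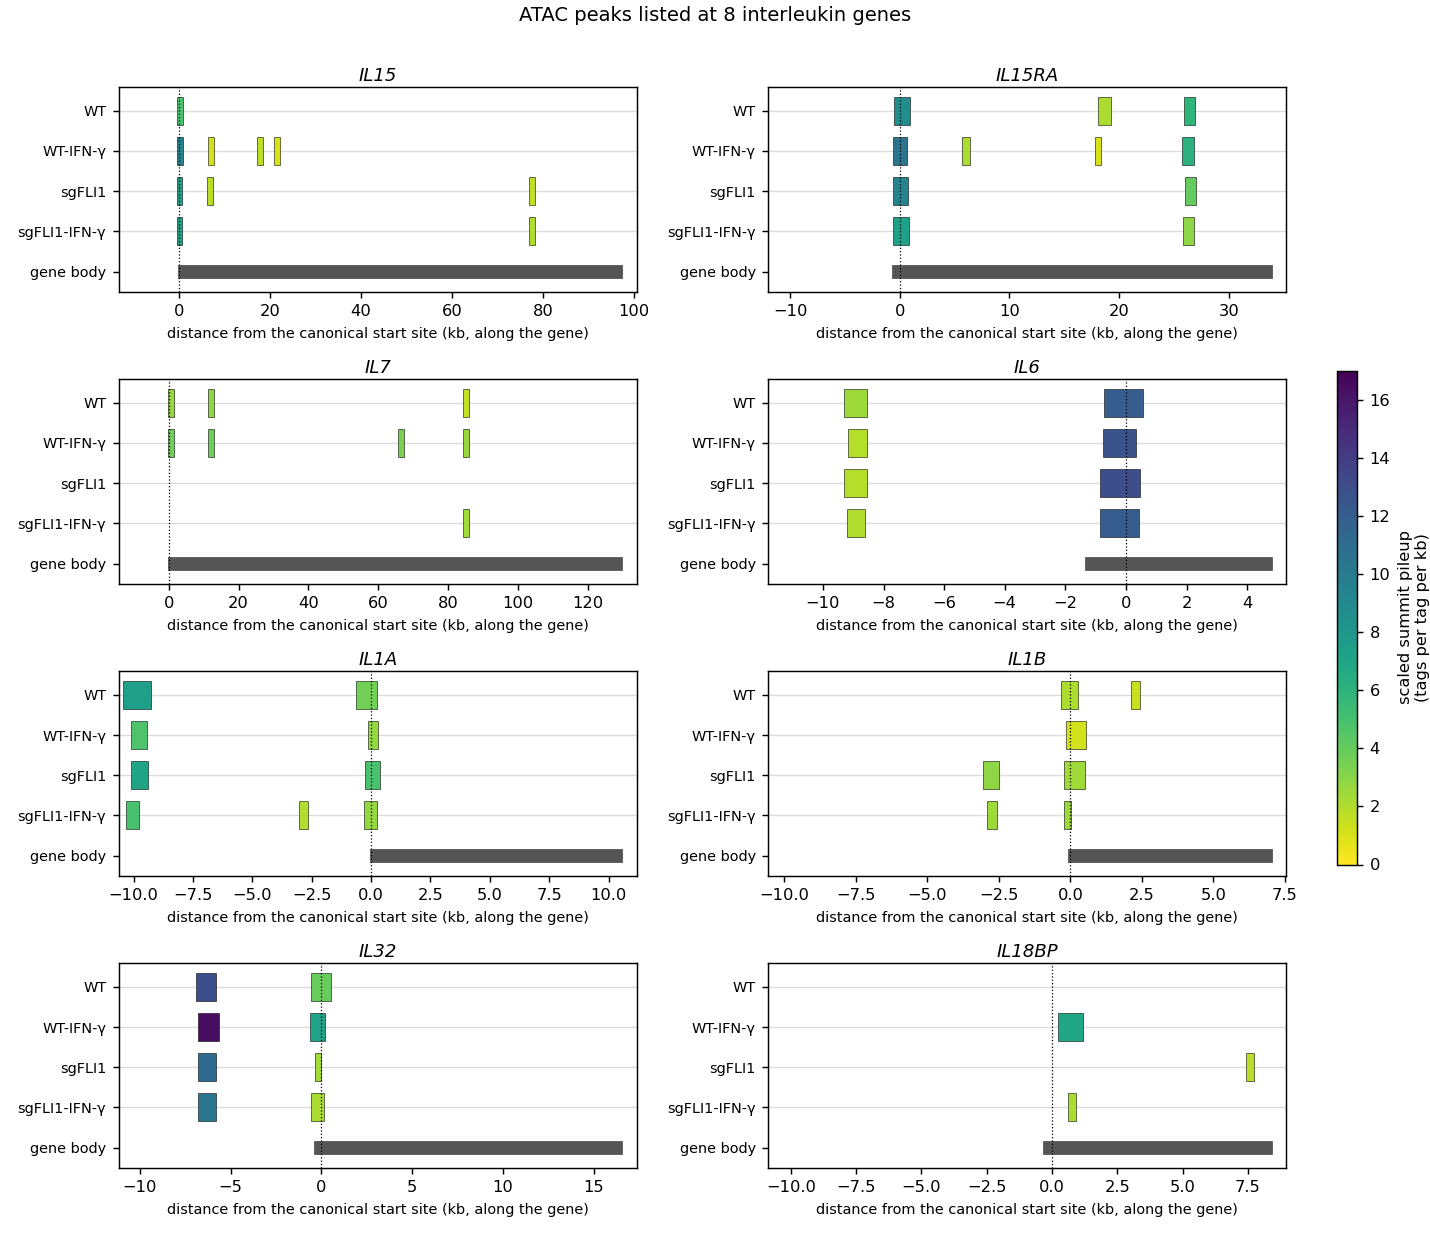
Peaks listed at each gene in the 4 groups, drawn by distance from the canonical start site in kb along the gene, with the gene body as a grey bar. Colour is the scaled summit pileup, and short peaks are widened to be visible. IL7 has no peak in sgFLI1 and IL18BP none in WT, while the IL6 start site is dark in every row.

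IL18BP, the IL-18 antagonist, had a region that was listed with IFN-γ alone. This region (chr11:71999144-72000110) has its summit 661 bp past the canonical start, in intron 1 of that transcript and 31 bp before the start of another IL18BP transcript, and the IRF match printed above lies 20 bp before the summit. With IFN-γ it held 61 tags in WT and 15 in FLI1-KO cells, and it was listed in neither untreated group. In WT, 18 tags would have been enough to be listed and 55.5 would have been found at the density of WT-IFN-γ (lower bound 42.5), so the region was less open without IFN-γ by more than counting error. In sgFLI1, 11 tags would have been enough and 15.2 were called for by sgFLI1-IFN-γ, with a lower bound of 8.48, so in FLI1-KO cells a difference was not detectable at this depth. With IFN-γ, FLI1-KO cells had 0.317 times the WT scaled pileup (0.167 to 0.564), and the listed enrichment over local background was 3.41 against 6.52. The only other IL18BP region, 7457 bp past the start, held 12 tags in sgFLI1 alone, at the limit of 12 tags for WT.

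The IL15 start site (chr4:141636043-141637355, summit in exon 1) held 39 tags in WT cells and 85 with IFN-γ, and 52 and 50 tags in FLI1-KO cells without and with it. WT-IFN-γ stood above the other 3 groups and WT below them. The ratio with over without IFN-γ was 1.98 in WT cells (1.34 to 2.98) and 0.972 in FLI1-KO cells (0.646 to 1.46). Because the local background rose with the peak, its enrichment over that background moved less in WT cells, from 7.77 to 9.12. Without IFN-γ, FLI1-KO cells had 1.55 times the WT value, with an interval that only just cleared 1 (1.00 to 2.41). Centred on the median shared peak of chromosome 4 this was 1.47 (0.95 to 2.28), so it is not a firm difference. With IFN-γ the ratio of FLI1-KO to WT cells was 0.758 (0.523 to 1.09). An IRF match lay 72 bp before the summit.

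Further into IL15, regions were weak. The intron 1 region whose sequence is shown above, 17671 bp past the start, held 15 tags in WT-IFN-γ. The WT limit was 8 tags against 13.7 tags after scaling, with a lower bound of 7.64, so its absence from the WT list was within counting error. Regions 6551 and 21425 bp past the start held 9 to 12 tags where listed, the former in WT-IFN-γ and sgFLI1 and the latter in WT-IFN-γ alone. A region 77543 bp past the start, 531 bp before the start of another IL15 transcript, was listed only in FLI1-KO cells, with 11 tags untreated and 14 with IFN-γ. Without IFN-γ this called for 12.8 tags in WT cells, with a lower bound of 6.37 against a limit of 8, so the absence was within counting error. With IFN-γ it called for 18.0 tags, with a lower bound of 9.86 above the limit of 8. That bound leaves out the counting error of WT-IFN-γ, so this absence is not firm either. Its summit lay 5 bp from an IRF match.

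At IL15RA, the receptor chain that presents IL-15, the start-site region (chr10:5976606-5978156) held 70 tags in WT cells and 93 with IFN-γ, and 65 and 51 tags in FLI1-KO cells without and with it. The ratio with IFN-γ was 1.21 in WT cells (0.877 to 1.67) and 0.793 in FLI1-KO cells (0.538 to 1.16), both within counting error. The intron 1 region printed above, 6093 bp past the start, held 19 tags in WT-IFN-γ and was listed in no other group. WT needed 8 tags and would have had 17.3 (lower bound 10.4), and sgFLI1-IFN-γ needed 7 and would have had 14.7 (lower bound 8.88). Both lower bounds lay above the limits. They hold the counting error of WT-IFN-γ alone, so these absences are not firm. A region in the 3′ part of the gene, 25977 bp past the start and beyond the end of the canonical transcript, held 48 tags in WT cells and 54 with IFN-γ, and 28 and 20 tags in FLI1-KO cells without and with it. It was lower in FLI1-KO cells with IFN-γ, at 0.477 times WT (0.271 to 0.810), and 0.677 times without (0.409 to 1.10). A merged region in intron 5 was listed in WT cells alone, where a peak of 17 tags untreated and another of 9 with IFN-γ overlapped only at their edges, with summits 576 bp apart.

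At IL7, a homeostatic cytokine of T cells, FLI1-KO cells lacked most of the regions listed in WT cells. The start-site region, 980 bp into the gene, held 21 tags in WT cells, 32 with IFN-γ, and was listed in neither FLI1-KO group. In sgFLI1, 8 tags would have been listed and 18.1 were called for (lower bound 11.2), and in sgFLI1-IFN-γ 11 would have been listed and 24.8 were called for (lower bound 17.0). The region 12156 bp past the start, in intron 2, behaved likewise, with 23 and 34 tags in the WT groups. In the FLI1-KO groups lower bounds of 12.6 and 18.3 tags stood above a limit of 9. Like the other lower bounds at IL7, they hold the counting error of the WT groups alone, so these absences are not firm. A region 66737 bp past the start, 156 bp before the start of another IL7 transcript, held 30 tags in WT-IFN-γ and was listed nowhere else. WT would have had 27.3 tags (lower bound 18.4) against a limit of 10, and sgFLI1-IFN-γ 23.3 (lower bound 15.7) against 9. The region 84958 bp past the start held 13 tags in WT cells, 23 with IFN-γ, and 16 in FLI1-KO cells with IFN-γ. Over the WT regions shared with WT-IFN-γ, the ratios with IFN-γ ran from 1.35 to 1.61 and none cleared counting error. The start-site region of IL7 held 1 IRF match 20 bp from its summit and 2 NF-kB matches.

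Peaks were also missing from FLI1-KO cells elsewhere around IL7 on chromosome 8. Within 5 Mb of the gene, 40.8% of 152 WT peaks were missing from sgFLI1 and 41.1% of 180 WT-IFN-γ peaks from sgFLI1-IFN-γ, against 21.4% and 29.0% of all peaks. In the other direction, 30.8% of 130 sgFLI1 peaks there were missing from WT, against 25.3% of all, and 10.1% of 119 sgFLI1-IFN-γ peaks from WT-IFN-γ, against 19.8%. Within 1 Mb, WT cells had 30 peaks and 35 with IFN-γ, and FLI1-KO cells 22 and 20. The peaks shared within 5 Mb had a median FLI1-KO to WT ratio of 0.938 without IFN-γ and 0.930 with it, beside 1.03 and 0.986 over all shared peaks. The start site of the neighbouring gene ZC2HC1A, 9.65 kb from the end of IL7, had scaled pileups of 15.3 in WT cells and 13.8 with IFN-γ, and of 16.0 and 12.8 in FLI1-KO cells. Whether these regional differences have a part in the result at IL7 was not tested.

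**Figure D2:**
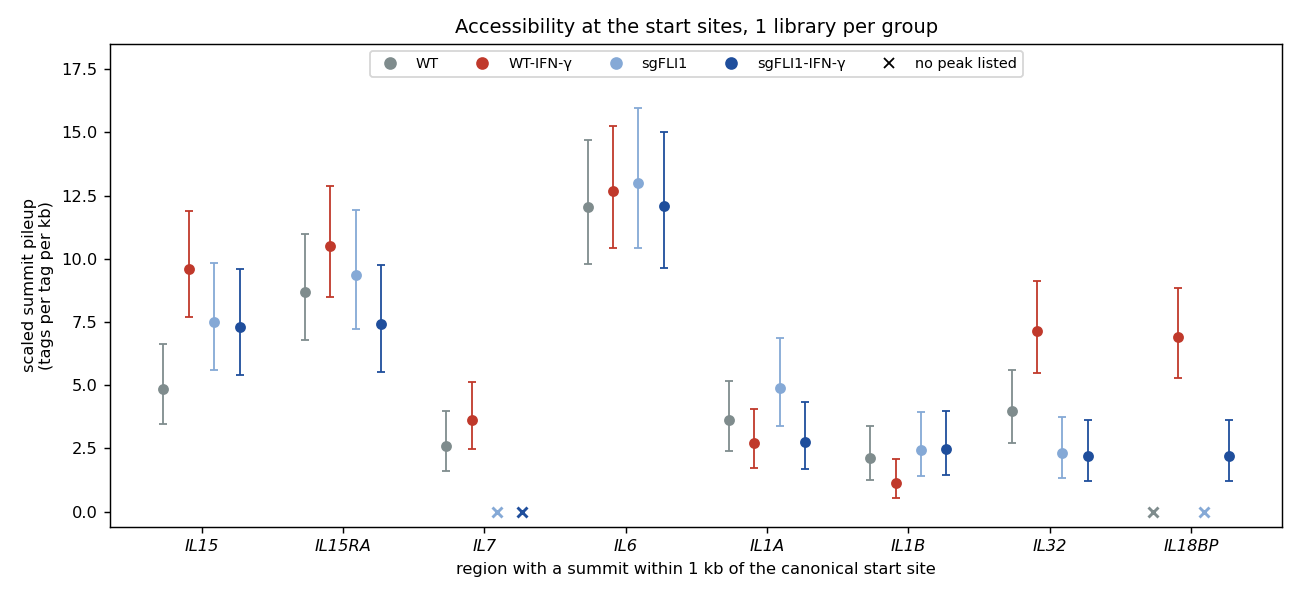
Scaled summit pileup of the start-site region of each gene in the 4 groups, as points with 95% Poisson intervals, where a cross marks a group with no listed peak rather than a measured 0. WT-IFN-γ is the highest group at IL15, IL15RA, IL7, IL32 and IL18BP, and the intervals of all 4 groups overlap at IL15RA, IL6, IL1A and IL1B.

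IL6 had the highest scaled pileup of the 8 start sites in each group, with the narrowest range across groups. Its listed enrichment over local background, 5.79 to 6.09, was below that of the IL15RA start site, 7.40 to 9.04. It held 97 tags in WT cells and 112 with IFN-γ, and 90 and 83 tags in FLI1-KO cells without and with it, which scaled to 12.1, 12.7, 13.0 and 12.1. All 4 ratios lay between 0.932 and 1.08 with intervals that included 1. The interval for IFN-γ in WT cells was 0.794 to 1.39, and it overlapped the 1.34 to 2.98 of the IL15 start site. The region 8647 bp upstream, inside the neighbouring gene STEAP1B, held 13 to 20 tags, and its 4 ratios ranged from 0.754 to 1.09 within counting error.

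IL1A and IL1B, which lie next to each other on chromosome 2, were less open. The IL1A start site held 29 tags in WT cells and 24 with IFN-γ, and 34 and 19 tags in FLI1-KO cells without and with it, and 2 AP-1 matches lay within its summit window. Its ratio with IFN-γ was 0.753 in WT cells (0.420 to 1.34) and 0.565 in FLI1-KO cells (0.304 to 1.02). The region 9857 bp upstream was the more open one, at 60, 42, 49 and 34 tags in the same order. It was lower with IFN-γ in WT cells, at 0.637 (0.419 to 0.961), and gave 0.701 in FLI1-KO cells (0.439 to 1.11). Scaled by the median shared peak the WT value was 0.669 and its interval reached 1.01. Another IL1A region, 2977 bp upstream, held 14 tags in sgFLI1-IFN-γ alone.

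The IL1B start site was weak, with 17 tags in WT cells and 10 with IFN-γ, and 17 and 17 tags in FLI1-KO cells without and with it. Its ratio with IFN-γ was 0.535 in WT cells (0.219 to 1.24) and 1.01 in FLI1-KO cells (0.485 to 2.11). A region 2781 bp upstream was listed only in FLI1-KO cells, with 20 tags untreated and 17 with IFN-γ. WT cells would have had 23.2 tags (lower bound 14.2) against a limit of 12, and WT-IFN-γ cells 21.9 (lower bound 12.8) against 11. Both lower bounds lay above the limits. They hold the counting error of the FLI1-KO groups alone, so these absences are not firm. An intronic region with 11 tags in WT, 2302 bp past the start, was the only one at the 8 genes that was lost with IFN-γ in WT cells. WT-IFN-γ cells would have had 12.1 tags (lower bound 6.03) against a limit of 10, so the loss was within counting error.

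The IL32 start site (chr16:3065025-3066177) held 32 tags in WT cells and 63 with IFN-γ, and 16 and 15 tags in FLI1-KO cells without and with it, with the NF-kB match shown above 26 bp before the summit. Both WT groups stood above both FLI1-KO groups. The ratio with IFN-γ was 1.79 in WT cells (1.15 to 2.83) and 0.947 in FLI1-KO cells (0.436 to 2.05). With IFN-γ, FLI1-KO cells had 0.307 times the WT value (0.162 to 0.545), and without it 0.580 times (0.297 to 1.09). The listed enrichment over local background differed less, at 5.77, 6.10, 5.06 and 4.69. The shared peaks of chromosome 16 were themselves lower in FLI1-KO cells, with median ratios of 0.849 without and 0.818 with IFN-γ. Centred on these, the IL32 start site with IFN-γ was at 0.375 (0.198 to 0.666) and without it at 0.683. What part the level of chromosome 16 has in the result was not tested.

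The region 6076 bp upstream of IL32, within the neighbouring gene MMP25, had the highest scaled pileup of the 25 regions in both WT groups, and in FLI1-KO cells the IL6 start site was higher. It held 104 tags in WT cells and 145 with IFN-γ, and 77 and 71 tags in FLI1-KO cells without and with it. With IFN-γ the FLI1-KO to WT ratio was 0.631 (0.468 to 0.844), and centred on chromosome 16 it was 0.771 with an interval that reached 1.03. In WT cells the ratio with IFN-γ was 1.27 (0.980 to 1.65), and in FLI1-KO cells it was 0.932, with an interval that included 1. It held an IRF match 39 bp before its summit. Which of the neighbouring genes it serves cannot be told apart here.

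**Figure D3:**
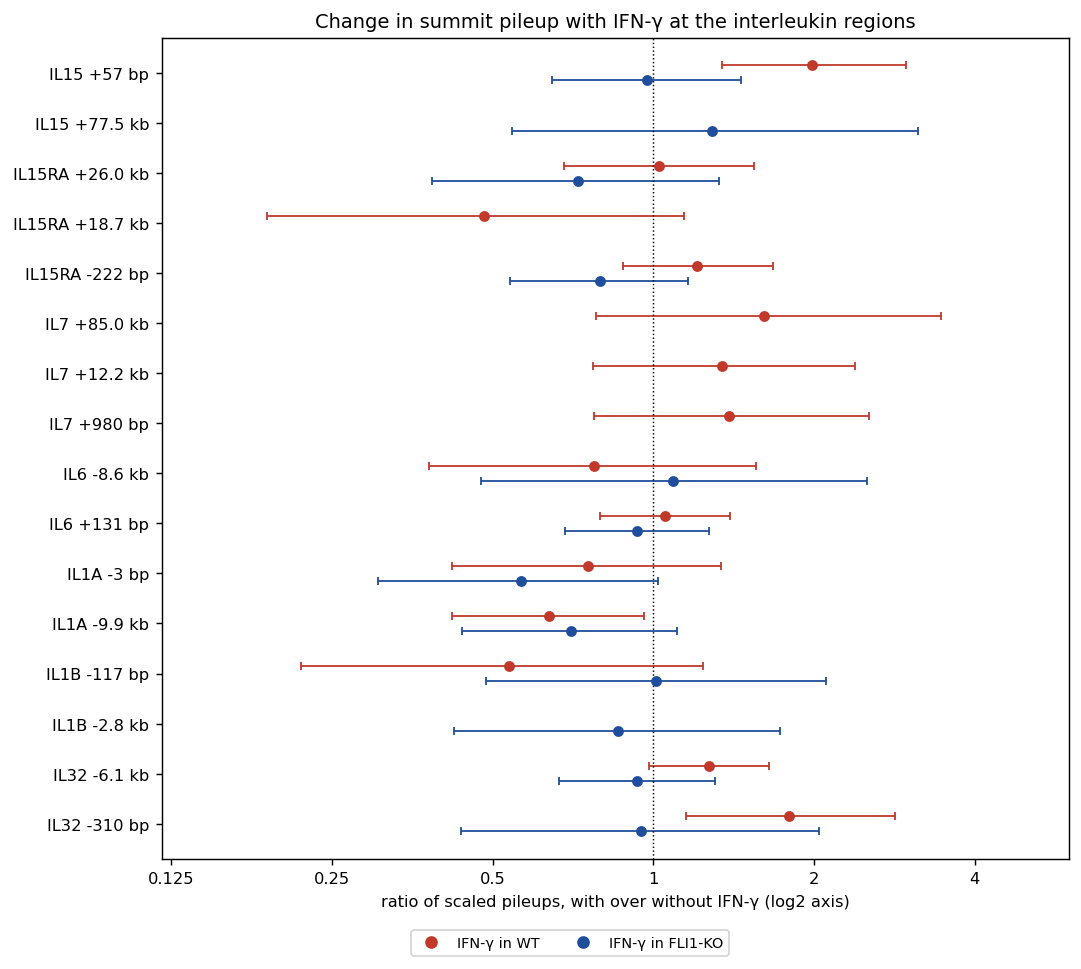
Ratio of scaled pileups with over without IFN-γ on a log2 axis, for each region listed in both groups of a pair, in WT cells (red) and FLI1-KO cells (blue), with 95% conditional binomial intervals and each region's distance from the start site at the left. In WT cells the intervals of the IL15 and IL32 start sites lie above 1 and that of the upstream IL1A region below it, and every FLI1-KO interval includes 1.

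The counts at the 8 genes are small and are set here beside those of all peaks. With IFN-γ in WT cells 6 of 20 peaks were gained, at IL15, IL15RA, IL7 and IL18BP, where 25.2% of all peaks were, and 1 of 15 was lost, where 15.9% were. The WT-IFN-γ list is the longest, and with lists of equal size 4 of 16 peaks were gained and 3 of 15 lost. In FLI1-KO cells 3 of 15 were gained, at IL7, IL1A and IL18BP, against 18.0%, and 2 of 14 lost, at IL15 and IL18BP, against 22.2%. Of the 14 regions shared by both WT groups, 2 had an interval above 1 (IL15 and IL32) and 1 below it (IL1A), where 3.91% and 3.6% of all shared peaks did. Of the 12 shared by both FLI1-KO groups none lay to either side, where 0.338% lay above and 4.15% below. The median ratio was 1.13 over the former and 0.932 over the latter, beside 0.952 and 0.909 over all shared peaks.

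Between genotypes without IFN-γ, 4 of 14 sgFLI1 peaks were not in WT and 5 of 15 WT peaks were not in sgFLI1, against 25.3% and 21.4% of all peaks. The 5 were at IL15RA, IL7 and IL1B. Of 10 shared regions, 1 lay above 1, at the IL15 start site, and none below, where 9.77% and 5.38% of all did. With IFN-γ, 8 of 20 WT-IFN-γ peaks were missing from sgFLI1-IFN-γ, all of them at IL15, IL15RA and IL7, against 29.0%, and 3 of 15 sgFLI1-IFN-γ peaks were not in WT-IFN-γ, against 19.8%. With lists of equal size, 5 of 16 were missing from sgFLI1-IFN-γ. Of 12 shared regions, 4 lay below 1 and none above, where 8.43% and 5.8% of all did. These 4 were the IL18BP region, both IL32 regions and the 3′ region of IL15RA. The median FLI1-KO to WT ratio over the shared regions was 1.01 without IFN-γ and 0.827 with it, beside 1.03 and 0.986 over all shared peaks.

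**Figure D4:**
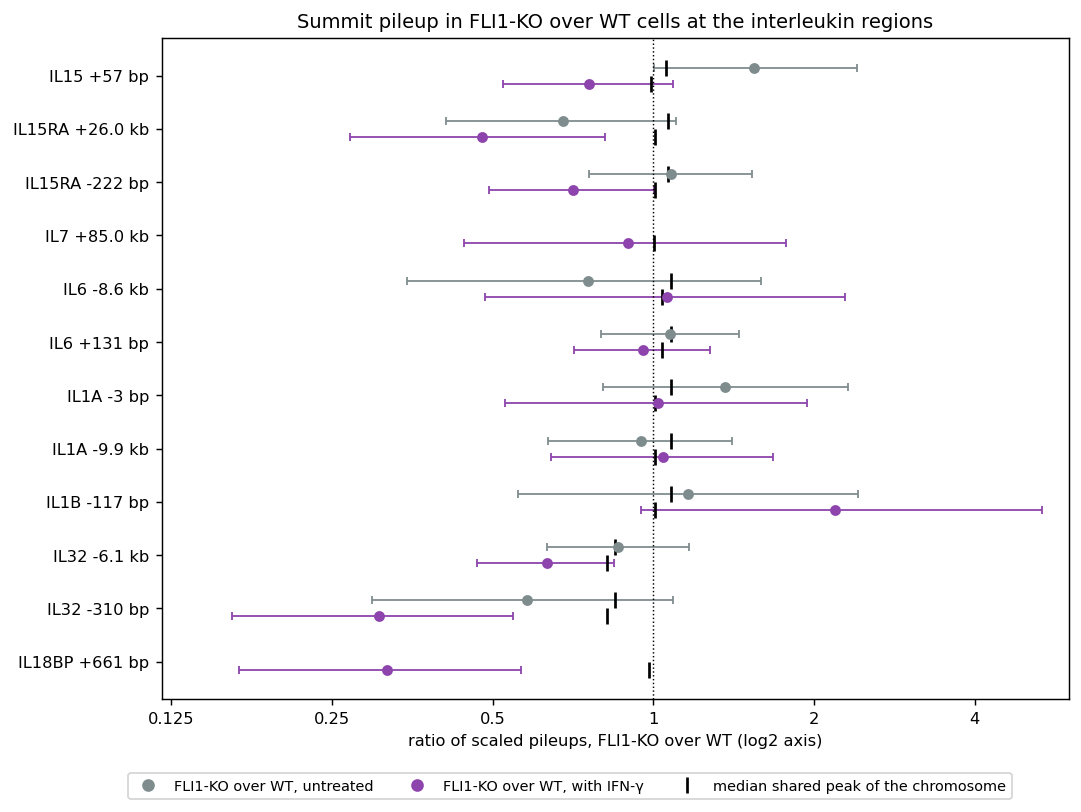
Ratio of scaled pileups in FLI1-KO over WT cells on a log2 axis, without IFN-γ (grey) and with it (purple), with 95% conditional binomial intervals. Black ticks mark the median shared peak of each region's chromosome. With IFN-γ, the IL32 and IL18BP regions lie at 0.307 to 0.631 and the 3′ region of IL15RA at 0.477. The IL6 and IL1A intervals all include 1, as does that of the only IL7 region listed in both genotypes. Regions missing from a group are not drawn for its pair.

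Counted by gene, 4 of the 8 had a region gained with IFN-γ in WT cells, against 32.0% of 19970 protein-coding genes, and 3 in FLI1-KO cells, against 22.9%. Regions were lost at 1 gene in WT cells and at 2 in FLI1-KO cells, where 21.5% and 28.0% of genes had such a loss. The windows of the 8 genes had a median of 23.7 kb and those of all genes 37.5 kb. Of 50 other interleukin and interleukin receptor genes, 19 had a region gained in WT cells and 13 in FLI1-KO cells, and 5 and 11 had one lost. The strongest region gained in WT cells by −log10 q lay near IL17RC, a subunit of the IL-17 receptor, with 131 tags in WT-IFN-γ, though 97 tags were listed there in FLI1-KO cells and 99 with IFN-γ. At IL2RA, the alpha chain of the IL-2 receptor, 28 tags were listed with IFN-γ in WT cells and 13 in FLI1-KO cells, and none in the untreated groups. The strongest gained regions at IL13RA1, OSMR and IL1R1, receptor genes for IL-13, oncostatin M and IL-1, held 23, 23 and 22 tags in WT-IFN-γ and were listed in no other group. At IL6ST, which encodes the shared signalling chain gp130, 18 tags were listed in WT-IFN-γ and 10 in sgFLI1.

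Motifs were searched on both strands within 100 bases of the summit of each region in the group where it was highest. The IRF motif GAAANNGAA was found in 6 of 25 regions, of which 2 were at IL15 and 1 each at IL15RA, IL7, IL32 and IL18BP. The same motif was found in 5.77% of WT peaks and 9.09% with IFN-γ, and in 5.47% and 5.94% of FLI1-KO peaks without and with it. No region of IL6, IL1A or IL1B held it in the window searched. At the IL6 start site that window was centred on the sgFLI1 summit, at 131 bp. The summits of the other groups, at -246 to -228 bp, lay outside it, so their surroundings were not searched for any motif. The AP-1 motif TGANTCA was in 5 regions, 3 at IL15RA and 2 at IL1A, and in 21.9% to 24.3% of the peaks of each list. The NF-kB motif GGGNNNTTC was in 2, at IL7 and IL32, and in 9.77% to 10.2% of peaks. The ETS motif CCGGAAGT, the class FLI1 belongs to, was in none of the 25, and in 1.28% to 1.42% of peaks. In the IL15RA window, the only printed sequence with more than 1 match, the IRF and AP-1 matches did not overlap. A match of letters does not show that a factor was bound, and no match says only that these letters are not in the window.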

How the data were processed

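ATAC-seq peak lists of HK1 cells were used, 1 for each of 4 groups, and groups were taken from the labels. Per the study's methods and the submitters' processing notes, the authors used Trimmomatic 0.3 for trimming and Bowtie2 2.3.4.1 for alignment to GRCh38, removed low-quality alignments and duplicates, and called peaks with MACS2 2.1.2 at a q-value cutoff, where the largest listed q was 0.0499. Whether a list is 1 replicate or pooled, before or after reproducibility filtering, and whether tags were shifted for the transposase, is not given in the sources used here. Each deposited list gives a score, a fold enrichment (a ratio) and a −log10 p and q for each peak, as the authors' peak caller wrote them.

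Genes were those of GENCODE release 44. Whole-number summit pileups and backgrounds were solved from the fold and −log10 p that were deposited, which succeeded for 100% of the peaks in each list within 0.0005. Tag density is the lowest background over the shortest peak. The lowest background was 2.20 tags in both WT and WT-IFN-γ, so their densities differ through the shortest peak, of 274 and 249 bp. Tag density is relative, not a read total. A peak was gained or lost when it shared no base with any peak of the other list. Listing limits are the fewest tags that reach the list's smallest −log10 p at the local background. A lower bound set against such a limit holds the counting error of the listed group alone. Poisson and conditional binomial intervals cover counting error only, and PCR copies are not independent molecules. Regions described singly were those within 1 kb of a canonical start, the highest of each gene, and those gained in WT-IFN-γ at −log10 q of at least 5. Others named were chosen after their values were seen. Steps were tested on simulated data. The genes and lists were chosen with earlier results of these data known. The alternatives tried were stricter q, equal list sizes, other overlap rules, other windows and other scalings. The work used SciPy 1.17.1, pandas 2.3.3, NumPy 2.4.6 and Matplotlib 3.10.9 under Python 3.11.15.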

Additional observations from a re-analysis of the deposited data

Results flagged for a closer look

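Of the 10 regions listed in all 4 groups, 8 had ratios with IFN-γ on opposite sides of 1 in WT and FLI1-KO cells, which was not tested because each group had 1 library. Scaled by the median shared peak, 4 did, and the IL15 start site, both IL32 regions and the IL6 start site lay above 1 in both genotypes. The difference in log2 ratio, WT minus FLI1-KO, was 1.03 at the IL15 start site (95% counting interval 0.25 to 1.81), which excluded 0. The other 7 intervals included 0. The differences were 0.92 at the IL32 start site, 0.45 at the region upstream of it, 0.61 at the IL15RA start site and 0.50 at its 3′ region. They were 0.17 at the IL6 start site, -0.49 at its upstream region and -0.92 at the IL1B start site. The median shared peak of the genome had ratios of 0.952 in WT and 0.909 in FLI1-KO cells.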

How the results depend on the processing

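Of 76 recomputed counts, 55 stayed within 1.5 times the reported one. All 144 recomputed ratios at single regions, under 3 other scalings, stayed within their counting intervals. Those intervals are wide, so this says little about how firm a call is. Peaks lost with IFN-γ in WT cells, 1 as reported, became 2 at a −log10 q of at least 5 and with an overlap of at least 0.5 of either peak, and 3 with equal list sizes and with summits matched within 250 bp. At a −log10 q of at least 5, losses in FLI1-KO cells fell from 2 to 1 and sgFLI1 peaks not in WT from 4 to 2. At a −log10 q of at least 10, FLI1-KO cells had 7 peaks and 5 with IFN-γ, and 0 were gained with IFN-γ in FLI1-KO cells, 0 were in sgFLI1 but not in WT, and 0 were in sgFLI1-IFN-γ but not in WT-IFN-γ. With equal list sizes of 59629 peaks, losses in FLI1-KO cells were 1 and WT-IFN-γ peaks missing from sgFLI1-IFN-γ were 5 in place of 8. With 50 kb upstream, WT cells had 26 peaks and 35 with IFN-γ, and FLI1-KO cells 27 and 26, gains were 10 in WT and 5 in FLI1-KO cells, losses in FLI1-KO cells were 6, and 8 sgFLI1 peaks were not in WT. The 50 kb change follows from the wider window. For the others the cause was not tested. Centred on its chromosome, the FLI1-KO to WT ratio with IFN-γ at the IL15RA start site was 0.701, with an interval of 0.488 to 0.996 that no longer reached 1. Scaled by the median shared peak, the ratio with IFN-γ in WT cells at the region upstream of IL32 was 1.33, with an interval of 1.03 to 1.73. Other intervals that had excluded 1 came to include it under at least 1 rescaling. They were at the IL1A region 9857 bp upstream with IFN-γ in WT cells and at the IL15 start site between untreated genotypes. The region upstream of IL32 did so between genotypes with IFN-γ. No paired analysis was possible because each group had 1 library. Regions of about 8 to 15 tags lie near the listing limit, where presence or absence carries little weight.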
